A study of Mus musculus with 2 samples.

Results

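The cells described here are inflammatory alveolar macrophages of the mouse lung after lipopolysaccharide (LPS, a bacterial endotoxin): the alveolar macrophages whose UMIs (counted RNA molecules) held the largest share of 3 transcripts, Cxcl3, Ccl5 and Inhba. They numbered 304 of 607 alveolar macrophages and of 17664 cells of the series that passed the cell filter (3000 UMIs and 200 genes or more, with no more than 20% of UMIs mitochondrial). An alveolar macrophage was a cell in which Plet1, Mrc1, Krt79, Ear2, Lpl and Marco together made up at least 0.15% of UMIs and at least 8 UMIs, in which the T cell gene Cd3e, the B cell gene Cd79a and the endothelial gene Cdh5 had no UMI, and in which the monocyte genes Ly6c2 and F13a1 had at most 5 UMIs. An inflammatory cell lay at or above the median share of the 3 transcripts over both libraries, and the other 303 cells are called quiet. The members were thus chosen by measured values, the share of UMIs in Cxcl3, Ccl5 and Inhba and in the gate genes, which are given as a description.

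The series held 2 droplet single-cell libraries of lung tissue from male mice of the outbred ICR strain, 6 to 8 weeks old. The LPS library came from mice given LPS and the LPS_MCZ library from mice given LPS and, by the intraperitoneal route, miconazole, an azole antifungal drug, at 0.2 mg/kg by the sample label and 1 mg/kg by the protocol text. Each library pooled left lower lobes of all mice of its group, and the number of mice, the LPS dose and the timing are not given in the sources used here. With 1 pooled library a group no difference between the groups can be tested, so no p-value is printed. The 95% intervals in brackets cover counting error only, not variation between mice, and those of ratios do not cover variation between cells either.

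Alveolar macrophages live on the air side of the alveoli, clear inhaled particles and surfactant lipid, and depend on PPARG-driven lipid handling. Endotoxin acts on them through the receptor TLR4, which has an arm that activates the factor NF-kB and induces neutrophil-attracting chemokines such as CXCL1, CXCL2 and CXCL3, and another arm that induces type I interferon and, through it, the interferon-stimulated genes. Of the 3 selecting genes, Cxcl3 encodes a neutrophil-attracting chemokine, Inhba a subunit of activin A, and Ccl5 a chemokine for T cells and monocytes that interferon signalling can raise.

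The inflammatory cells numbered 250 in LPS and 54 in LPS_MCZ, with 5526400 and 1350604 UMIs in sum and a median of 21861 and 23976.5 UMIs per cell. The median cell held 4557.5 and 4926 genes and 3.14% and 3.25% mitochondrial UMIs. Before filtering the libraries held 12577 and 8500 barcodes, of which 243 occurred in both, and 5 LPS and 6 LPS_MCZ members carried such a barcode. Doublets were not called, so a barcode could hold more than 1 cell. Alternatives that bear on this left out shared barcodes, the 10% of members highest in neutrophil markers, or cells outside a stricter set described next.

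The label alveolar macrophage held for most members, and a few members went against it. The 12 alveolar macrophage markers summed to 9435 CPM (UMIs of a gene scaled to a total of 1e+06 UMIs) in LPS and 10017 CPM in LPS_MCZ, and all 12 had UMIs in both libraries. In T cells of the same libraries (966 and 451 cells, at least 3 UMIs of Cd3d, Cd3e and Cd3g), which should lack these genes, the same markers summed to 42.2 and 56.4 CPM. The gate chose members by 6 such genes, and the T cells had to be low in the same 6. The choice of cells can thus set part of this contrast. Car4 was not a gate gene. In cells thinned to 3000 UMIs it had a UMI in 93.2% of LPS and 88.9% of LPS_MCZ members, against 3.83% and 2.88% of T cells. In LPS, 4 members carried 43 to 109 UMIs of Prg4, a lubricin gene, and 11 to 32 UMIs of Timd4, a phosphatidylserine receptor gene of long-lived tissue macrophages outside the alveoli, with no UMI of Mrc1 or of the carbonic anhydrase gene Car4 and 0 or 1 UMI of Plet1. In LPS_MCZ, 2 members carried 350 and 390 UMIs of Cd74, the invariant chain gene of MHC class II, with 71 and 226 UMIs of the dendritic cell chemokine gene Ccl22 and 86 and 97 of the migration receptor gene Ccr7, and 1 LPS member carried 261 UMIs of Cd74. The gate asked only for a sum over its 6 genes, and Marco alone gave 27 to 156 UMIs in the 4 Prg4 cells. A stricter set, called core cells below and defined after these cells had been seen, required UMIs of Car4 and of at least 4 of the 6 gate genes, under 10 UMIs of Prg4 and under 50 UMIs of H2-Aa and H2-Ab1 together. It held 235 LPS and 47 LPS_MCZ members.

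Neutrophil and erythroid transcripts were found in members of both libraries, below their levels in the T cells, and some marker sums differed between the libraries. The 12 neutrophil markers summed to 7419 CPM in LPS and 4593 CPM in LPS_MCZ, against 89012 and 111192 CPM in the T cells, and single members reached 168476 and 32559 CPM. The 6 T cell markers summed to 1717 and 1405 CPM in the T cells, and no limit on neutrophil markers was set for them. Whether their neutrophil transcripts were free RNA or came from barcodes that also held a neutrophil was not tested. The 8 epithelial markers summed to 69.5 and 213 CPM, and the 4 erythroid markers to 632 and 416 CPM. The 6 conventional dendritic cell markers summed to 8.87 CPM in LPS and 161 CPM in LPS_MCZ, and in core cells to 8.56 and 4.88 CPM. T cell markers were at 10.3 and 4.44 CPM and B cell markers at 0.724 and 0.740 CPM, with Cd3e, Cd79a and Cdh5 at 0 by the gate. Classical monocyte markers summed to 171 and 177 CPM, nonclassical monocyte markers to 49.9 and 58.5 CPM, natural killer cell markers to 52.3 and 77.0 CPM and platelet markers to 44.7 and 12.6 CPM. Interstitial macrophage markers were at 47.8 and 43.7 CPM in all members and at 15.03 and 9.75 CPM in core cells, endothelial markers at 8.32 and 12.6 CPM and fibroblast markers at 4.34 and 0.740 CPM. Without the 10% of members highest in neutrophil markers (224 and 49 cells left) the median log2 ratio of the lists described below moved little for most, for example -0.43 against -0.44 for interferon-response genes and 0.23 against 0.24 for lysosomal genes.

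The LPS library supplied most of the inflammatory cells. Of its 342 alveolar macrophages 73.1% [68.1, 77.7] were inflammatory, and of the 265 in LPS_MCZ 20.4% [15.7, 25.7] (Clopper-Pearson intervals). In core cells the shares were 75.6% and 19.3%. As a share of all cells past the filter, inflammatory cells made up 2.42% in LPS and 0.736% in LPS_MCZ. Over all alveolar macrophages the median share of UMIs in the 3 transcripts was 0.727% in LPS and 0.0396% in LPS_MCZ. The dividing value was 0.302%. The cell just outside it lay at 0.297%, and 28 of the 607 cells lay within 10% of it, 17 above and 11 below. Members of the libraries did not fill the same part of the range above it. The LPS members ran from 0.302% to 3.75% with a median of 1.02%, and the LPS_MCZ members from 0.304% to 2.42% with a median of 0.663%. The plot of the 3-transcript share by library shows this position of the LPS_MCZ members nearer to the dividing line.

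**Figure D1:**
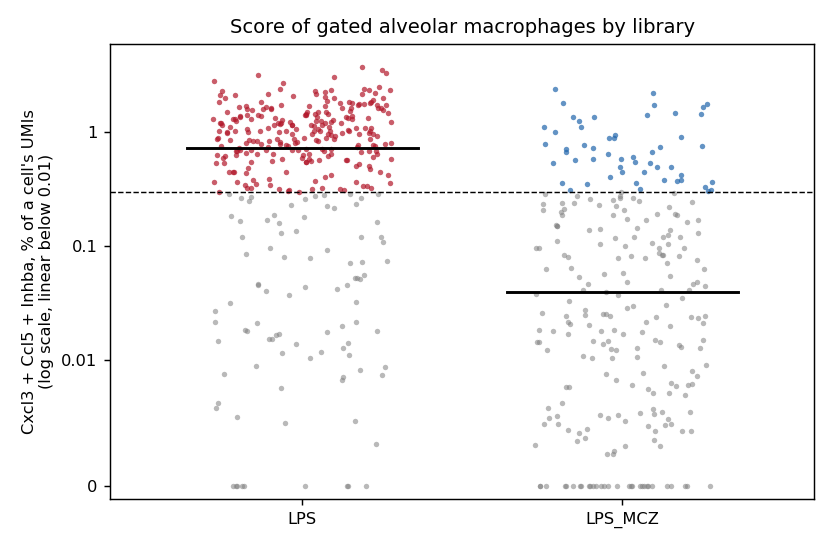
Share of each alveolar macrophage's UMIs in Cxcl3, Ccl5 and Inhba (log scale, linear below 0.01%) in the LPS library (342 cells) and the LPS_MCZ library (265 cells). Coloured points are inflammatory cells, grey points quiet cells, the black bar is the median of all alveolar macrophages of the library (0.727% and 0.0396%) and the dashed line is the dividing value of 0.302%.

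Inside the inflammatory cells 2 of the 3 selecting genes were lower in LPS_MCZ, and Ccl5 was not. Cxcl3 was at 6549.6 CPM in LPS against 3769 CPM in LPS_MCZ over the summed cells, a log2 ratio of LPS_MCZ over LPS of -0.80 [-0.84, -0.75]. Its cell median was 5845 CPM in LPS and 2782 CPM in LPS_MCZ, and single cells ran from 0 to 30697 and from 0 to 17893 CPM. Inhba was at 1236 CPM in LPS against 706 CPM in LPS_MCZ (-0.81 [-0.91, -0.71]), with cell medians of 754 and 366 CPM. Ccl5 was at 3472 CPM in LPS against 3504 CPM in LPS_MCZ (0.01 [-0.03, 0.06]), with cell medians of 1432 and 1614 CPM and single cells from 0 to 24169 and 22179 CPM. The cells of the libraries overlapped for each of the 3 genes, for Ccl5 over nearly the whole range. For Cxcl3 and Inhba the highest LPS cells lay above all LPS_MCZ cells, with Inhba reaching 7309 CPM in LPS and 3748 CPM in LPS_MCZ. Where the members were instead the upper part of each library by its own median (171 and 133 cells), Ccl5 was lower in LPS_MCZ (log2 ratio -1.51), while among cells at or above the pooled 75th percentile (137 and 15 cells) it was at 0.62. All log2 ratios here use CPM of the summed cells plus 1 CPM, which understates ratios of low genes, and bracketed intervals are of the ratio without that addition.

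**Figure D2:**
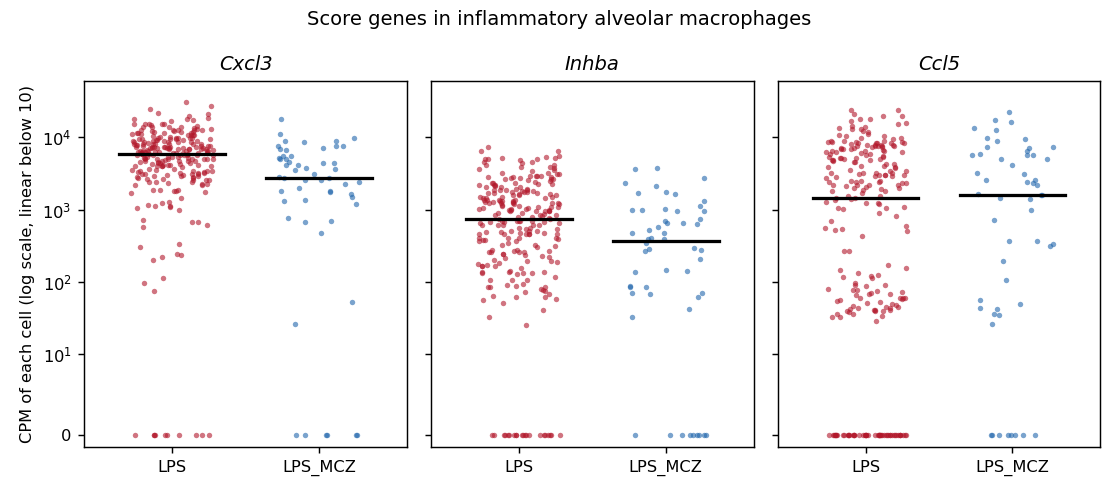
CPM of Cxcl3, Inhba and Ccl5 in each inflammatory alveolar macrophage (log scale, linear below 10 CPM) of LPS (250 cells) and LPS_MCZ (54 cells), with black bars at the cell medians. The bars are lower in LPS_MCZ for Cxcl3 (5845 and 2782 CPM) and Inhba (754 and 366 CPM), and Ccl5 ranges from 0 to 24169 and 22179 CPM.

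Most genes differed by less than 2-fold between the inflammatory cells of the libraries. Of 8378 genes with at least 50 UMIs over both libraries' members, 125 were at least 2-fold higher in LPS_MCZ (1.49%) and 127 at least 2-fold lower (1.52%), together 3.01%, with a median log2 ratio of -0.02 and a spread (SD over genes) of 0.46. In core cells 80 of 8220 genes were higher (0.973%) and 140 lower (1.7%), while 7.14% lay above 0.5, 8.99% below -0.5 and 54.7% below 0. In quiet cells 127 of 8463 genes were higher (1.5%) and 109 lower (1.29%). The count of genes past 2-fold depended on the minimum of UMIs, which also sets how many genes are compared: with at least 200 UMIs a gene, 41 were higher and 26 lower.

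With members compared between libraries, interferon-response and MHC class I genes were lower in LPS_MCZ, and genes of the resident alveolar macrophage programme, lysosomes, fatty acid oxidation and cholesterol export were higher, each by a median of less than 0.5 on the log2 scale. Over all genes 8.52% lay above 0.5, 8.26% below -0.5, 52.7% below 0 and 47.3% above 0, and the counts of the lists are read against these shares. The genes of the selection rule are left out of list counts and medians. Placing the list medians of all members beside those of core cells shows which lists keep their place.

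**Figure D3:**
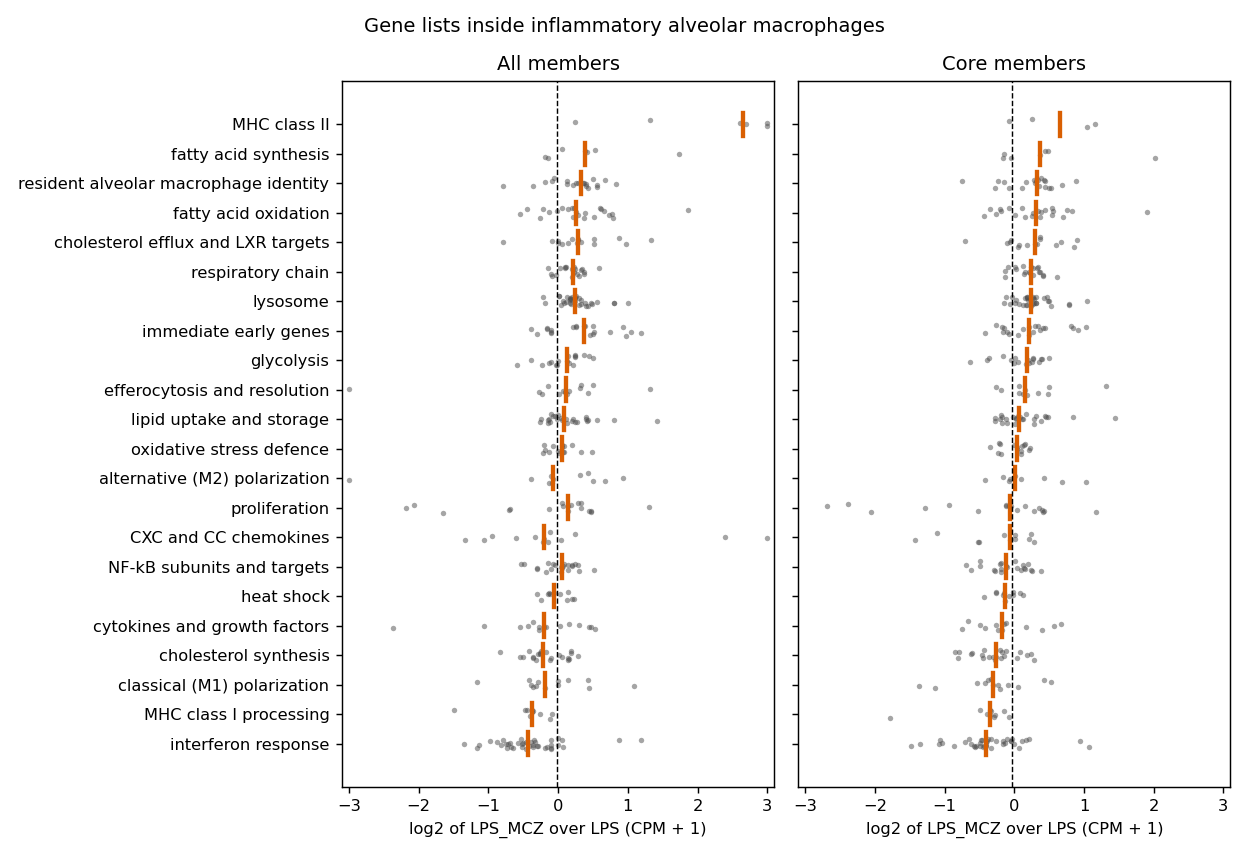
Log2 ratio of LPS_MCZ over LPS (CPM plus 1) of each measured gene of the 22 gene lists (grey points) in all inflammatory cells (left) and in core cells (right), with orange bars at list medians and dashed lines at the median of all genes. Points beyond -3 or 3 are drawn at that limit. The interferon response is lowest in both panels (medians -0.44 and -0.40), and MHC class II moves from 2.65 to 0.65.

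Of the neutrophil-attracting chemokine genes that the selection did not use, Cxcl1 and Cxcl2 were slightly lower in the LPS_MCZ sums. Cxcl2 was at 5103 CPM in LPS against 4703 CPM in LPS_MCZ (-0.12 [-0.16, -0.08]) and Cxcl1 at 1090.2 and 986 CPM (-0.14 [-0.23, -0.06]). Cell medians were also lower for both, and by more than the sums, 3049.8 and 2259 CPM for Cxcl2 and 609 and 324 CPM for Cxcl1. In the T cells Cxcl2 still stood at 4287 and 5356 CPM, near the members' level, whereas Cxcl1 (44.1 and 53.6 CPM) and Cxcl3 (332 and 224 CPM) were far below it. The 3 genes belong to 1 chemokine cluster on chromosome 5, and RefSeq promoters (GRCm38.p6, 250 bases before to 50 after the start of transcription) of Cxcl3 (chr5:90785851-90786150, plus strand) and Cxcl2 (chr5:90903649-90903948, plus strand) are printed to show the letters of an NF-kB binding motif that they share. The kappaB motif, searched on both strands as GGGA and TTCC with any 2 bases between them, occurred in 1.47% of 32851 promoters of this length and in 4 of 11 chemokine list genes that matched the table, among them Cxcl1. Capitals mark the 2 matches in each promoter, which lie on opposite strands and overlap in 1 run.
Cxcl3: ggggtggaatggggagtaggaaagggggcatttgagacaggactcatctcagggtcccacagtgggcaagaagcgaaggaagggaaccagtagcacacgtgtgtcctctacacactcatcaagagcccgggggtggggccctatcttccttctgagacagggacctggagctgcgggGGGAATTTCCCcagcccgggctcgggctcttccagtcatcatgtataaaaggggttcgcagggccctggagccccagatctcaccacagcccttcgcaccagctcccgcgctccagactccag
Cxcl2: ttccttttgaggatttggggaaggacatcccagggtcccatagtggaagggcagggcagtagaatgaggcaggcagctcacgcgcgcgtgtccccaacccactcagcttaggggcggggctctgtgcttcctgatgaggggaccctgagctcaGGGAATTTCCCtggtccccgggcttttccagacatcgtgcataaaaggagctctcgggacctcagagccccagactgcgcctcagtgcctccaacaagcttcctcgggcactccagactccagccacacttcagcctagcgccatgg

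A match describes letters in the window and not a bound site, and the Inhba promoter window held none of the motifs searched. Ccl5 was not matched in the promoter table.

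CC chemokines showed lower macrophage inflammatory protein genes and little change in the constitutive ones. Ccl3, a macrophage inflammatory protein gene, was at 1418 CPM in LPS against 936 CPM in LPS_MCZ (-0.60 [-0.69, -0.51]), with cell medians of 720.0 and 295 CPM. Its neighbour Ccl4 was at 1162 and 1000.3 CPM (-0.22 [-0.30, -0.13]), but 2 cells held 56.6% of its LPS_MCZ UMIs and the cell medians were 453 and 139 CPM. Ccl9 (3468 and 3023 CPM, -0.20 [-0.25, -0.15]) and Ccl6 (1987 and 2359 CPM, 0.25 [0.19, 0.30]), which mouse macrophages make at rest, lay on either side of 0, and the scavenger-receptor chemokine gene Cxcl16 was at 129.9 and 103 CPM (-0.33 [-0.61, -0.07]). Cxcl10, an interferon-induced chemokine gene, was at 464 and 475 CPM (0.04 [-0.09, 0.16]), with 2 cells holding 66.7% of its LPS_MCZ UMIs and cell medians of 65.8 and 24.96 CPM. The monocyte chemokine genes Ccl2 (-1.07, core 0.24) and Ccl7 (-1.33, core 0.29) changed side without the cells outside the core, and Cxcl9 did not (-0.95, core -1.43). Of 13 measured chemokines, 2 were above 0.5 and 4 below -0.5, with a median of -0.20 in all members and -0.07 in core cells. The 2 above were Ccl22 and Ccl17, from the Cd74-rich cells. In quiet cells the chemokine list was lower in LPS_MCZ by more, with a median of -1.01 over 14 genes, 10 of them below -0.5. In quiet core cells its median was -0.43 over 10 genes.

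The cytokine list had a median ratio slightly below 0, which depended on how the cells were chosen. Per cell, the summed list had a median of 6196 CPM in LPS and 4068 CPM in LPS_MCZ, and of 6259 and 4081 CPM in core cells. Il1b, the interleukin-1 beta gene, was at 2992 CPM in LPS against 2466 CPM in LPS_MCZ (-0.28 [-0.33, -0.23]) and Il1a at 1831 and 1512 CPM (-0.28 [-0.35, -0.21]), while the T cells held 3059 and 3827 CPM of Il1b and 107 and 146 CPM of Il1a. The receptor antagonist gene Il1rn was at 652 and 564 CPM (-0.21 [-0.32, -0.10]), and Il18, a cytokine gene that inflammasomes act on, at 306 and 209.5 CPM (-0.54 [-0.73, -0.36]). Il6 was at 127 and 60.0 CPM (-1.07 [-1.43, -0.75], core -0.67) and had a UMI in 94 LPS and 14 LPS_MCZ cells. Tnf went the other way in the sums, 690.3 and 853 CPM (0.30 [0.21, 0.40]), but 2 cells held 56.3% of its LPS_MCZ UMIs and the cell medians were 246 and 228 CPM. Areg, an epidermal growth factor family gene, had 65 LPS UMIs and 2 LPS_MCZ UMIs (interval -6.07 to -1.08), and a ratio of 1.33 when each library's own median chose the cells. Of 15 measured cytokine genes 1 was above 0.5 (Tnfsf13, 0.52) and 3 below -0.5, with 9 of 15 below 0, against 52.7% of all genes. The list median was -0.21, but 0.26 when each library's own median chose the cells and -0.022 in the upper pooled tercile of the score (178 and 25 cells). In quiet cells it was -0.30 and in quiet core cells -0.04.

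Genes of NF-kB subunits and their direct targets were near equal in the summed cells, with a median of 0.05 over 22 genes, 1 above 0.5 and 1 below -0.5. Per cell, the summed list had a median of 8471 CPM in LPS and 7565 CPM in LPS_MCZ. The subunit genes Rela (112 and 77.0 CPM, -0.54 [-0.86, -0.24]) and Nfkb2 (183 and 130.3 CPM, -0.48 [-0.73, -0.25]) and the mitochondrial superoxide dismutase gene Sod2 (1859 and 1508 CPM, -0.30 [-0.37, -0.23]) were lower. The feedback inhibitor genes Nfkbia (0.20 [0.13, 0.27]), Nfkbiz (0.29 [0.14, 0.43]) and Nfkbid (0.51 [0.21, 0.82]) were higher, and Tnfaip3 was at 0.14 [0.03, 0.25]. Core cells gave a list median of -0.11, and cells at or above the pooled 75th percentile of the score gave 0.30.

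Interferon-response genes were the list with the lowest median in the inflammatory cells, -0.44 over 40 measured genes. Of these, 35 were below 0, against 52.7% of all genes, 18 below -0.5 and 2 above 0.5. In core cells the median was -0.40, with 34 genes below 0 and 12 below -0.5, and over the 18 alternatives it ran from -0.74 to -0.21. Per cell, the summed list had a median of 4690.5 CPM in LPS and 2989 CPM in LPS_MCZ, but cells ran from 466 to 36648 CPM and from 666 to 37486 CPM, so that both libraries held high and low cells. T cells of the same libraries showed lower interferon-response genes too. The same genes had there a median of -0.48, 37 of 40 below 0, and their level was at or above that of the members for 30 genes in LPS and 28 in LPS_MCZ. T cells can express such genes themselves, and these barcodes also held neutrophil transcripts (89012 and 111192 CPM of the 12 neutrophil markers). They therefore give no measure of free RNA for this list, and the part of free RNA in the members' values was not tested.

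The oligoadenylate synthetases, sensors of double-stranded RNA, were among the lowest. Oas3 was at 73.6 CPM in LPS against 28.1 CPM in LPS_MCZ, 2.56-fold lower (-1.36 [-1.91, -0.91]), Oasl2 at 178 and 80.7 CPM (-1.13 [-1.44, -0.86]) and Oas2 at 26.6 and 14.1 CPM (-0.87 [-1.69, -0.22]), while Oas1a was at 0.08 [-0.37, 0.50]. Rnf213, a large ubiquitin ligase gene that interferon raises, was at 270.2 and 119.9 CPM, 2.24-fold lower (-1.16 [-1.41, -0.94], core -1.09). Of the antiviral genes that act at membranes, Ifitm3 was at 364 and 219 CPM (-0.73 [-0.91, -0.56], core -1.04) and Bst2, encoding tetherin, at 278 and 177 CPM (-0.65 [-0.85, -0.45]). The exonuclease gene Isg20 (-0.98 [-1.56, -0.49]), Slfn5 (-0.82 [-1.07, -0.58]), Ifit3 (-0.80 [-1.21, -0.43]) and the deconjugase gene Usp18 (-0.72 [-1.29, -0.22]) were lower as well. Of the signalling genes, Irf7 was at 203 and 152 CPM (-0.42 [-0.64, -0.20]) and Stat2 at -0.16 [-0.48, 0.14].

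A few antiviral genes did not follow the list, and single cells carried much of their LPS_MCZ counts. Ifih1, the MDA5 sensor gene, was at 362 and 664 CPM (0.88 [0.76, 0.99]), where 1 LPS_MCZ cell held 228 of 897 UMIs and the cell medians were 239 and 319.5 CPM. Rsad2, the viperin gene, was at 405 and 419 CPM (0.05 [-0.09, 0.18]), but 1 LPS_MCZ cell held 346 of 566 UMIs and the cell medians were 42.9 and 13.9 CPM. Ifit1, an RNA cap-binding protein gene, was at 303 and 302 CPM, with 163 of 408 UMIs in 1 cell and cell medians of 91.2 and 33.8 CPM. The sums of these genes thus rested on few cells, and their medians over cells were lower in LPS_MCZ for Rsad2 and Ifit1 and higher for Ifih1. Isg15, a ubiquitin-like protein gene, was at 691 and 606 CPM (-0.19 [-0.30, -0.08]). Ifit3b (1.18 [0.61, 1.88]) is a near copy of Ifit3, and the counting may have divided their reads.

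Promoters of 4 genes of the list are printed because they hold letters of the element through which interferon signalling acts on genes. The interferon-stimulated response element, searched on both strands as 2 copies of GAAA with any 2 bases between them, occurred in 3.44% of the 32851 promoters, in 20 of the 35 list genes matched and in 1 of 11 matched chemokine genes. The genes stand for different ratios: Oas3 (chr5:120777610-120777909, minus strand) and Ifitm3 (chr7:141010695-141010994, minus strand) were lower, and Rsad2 (chr12:26456403-26456702, minus strand) and Ifit1 (chr19:34640639-34640938, plus strand) were equal in the sums. Capitals mark matches of this motif, and in Ifitm3 also 1 match of the kappaB motif, GGAAGTTCCC on the printed strand. The 4 were picked from list genes that hold the motif, so nothing about their ratios follows from its presence.
Oas3: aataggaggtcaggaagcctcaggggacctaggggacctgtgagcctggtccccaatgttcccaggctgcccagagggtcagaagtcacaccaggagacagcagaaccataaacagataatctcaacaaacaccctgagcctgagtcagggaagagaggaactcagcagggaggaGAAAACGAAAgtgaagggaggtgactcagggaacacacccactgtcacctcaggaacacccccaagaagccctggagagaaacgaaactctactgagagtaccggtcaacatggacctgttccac
Ifitm3: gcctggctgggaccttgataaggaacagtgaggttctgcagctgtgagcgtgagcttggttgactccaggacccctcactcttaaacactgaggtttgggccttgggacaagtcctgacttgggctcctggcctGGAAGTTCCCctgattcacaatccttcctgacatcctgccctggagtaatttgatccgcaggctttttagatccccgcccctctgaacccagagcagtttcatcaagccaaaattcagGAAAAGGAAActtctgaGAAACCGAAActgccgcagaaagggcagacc
Rsad2: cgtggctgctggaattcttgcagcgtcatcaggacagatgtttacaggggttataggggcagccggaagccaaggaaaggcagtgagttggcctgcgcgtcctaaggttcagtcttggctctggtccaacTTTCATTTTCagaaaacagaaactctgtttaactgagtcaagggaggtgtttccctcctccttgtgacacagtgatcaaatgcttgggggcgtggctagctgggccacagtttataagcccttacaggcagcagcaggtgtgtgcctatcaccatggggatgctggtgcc
Ifit1: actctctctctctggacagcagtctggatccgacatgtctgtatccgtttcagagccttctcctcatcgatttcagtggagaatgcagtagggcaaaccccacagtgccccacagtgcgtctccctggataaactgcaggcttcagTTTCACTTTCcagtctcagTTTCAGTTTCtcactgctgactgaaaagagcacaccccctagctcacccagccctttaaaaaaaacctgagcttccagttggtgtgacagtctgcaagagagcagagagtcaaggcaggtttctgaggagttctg

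Ccl5 ranged from none to high levels among the inflammatory cells, and cells with more of it held more interferon-response transcripts. Ccl5 is a gene of the selection, so the values by Ccl5 level are a description. At least 1000 CPM of Ccl5 was seen in 136 of 250 LPS cells (54.4%) and in 31 of 54 LPS_MCZ cells (57.4%), with 28 and 7 cells between 500 and 2000 CPM, so that this value marks a range and not a type. Cells above it held a median of 6816 CPM of the summed interferon list in LPS and 3773 CPM in LPS_MCZ, and cells below it 2859 and 1533 CPM. Between libraries the list was lower on both sides of the value, with a median log2 ratio of -0.44 above and -0.47 below. Across the members Ccl5 and the summed list had a Spearman correlation of 0.46 in LPS (250 cells) and 0.46 in LPS_MCZ (54 cells), and Cxcl3 and the list -0.24 in LPS (250 cells) and -0.58 in LPS_MCZ (54 cells). Over all alveolar macrophages of a library the same correlations were 0.53 and 0.32 for Ccl5 and 0.07 and 0.14 for Cxcl3. The cells of 1 library share its depth and free RNA, and choosing cells by the sum of Cxcl3, Ccl5 and Inhba favours cells high in 1 of them where another is low, so these correlations are descriptions only.

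**Figure D4:**
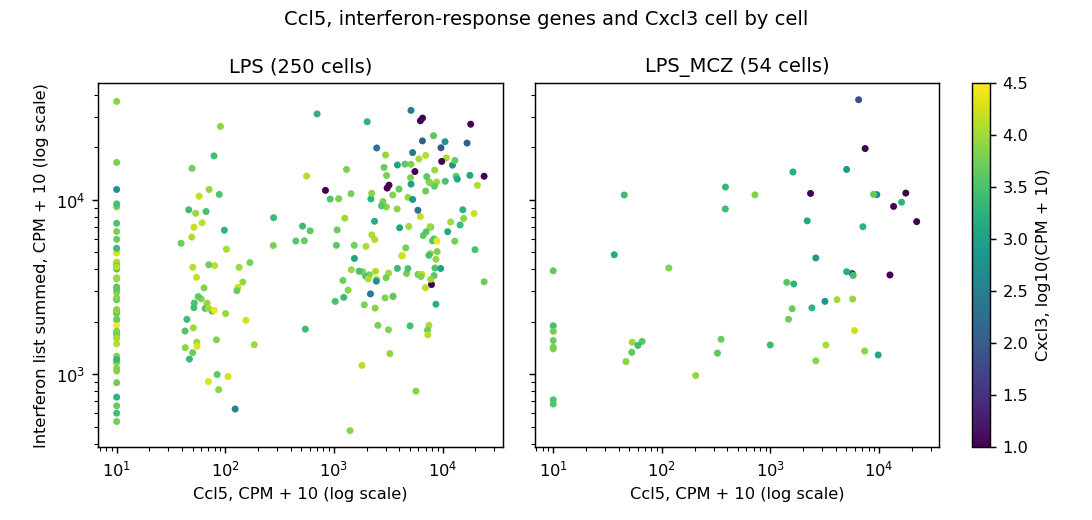
Summed CPM of the interferon-response list against CPM of Ccl5 in each inflammatory cell (both plus 10, log scales), LPS (250 cells) left and LPS_MCZ (54 cells) right, coloured by Cxcl3 as log10 of CPM plus 10. Cells with at least 1000 CPM of Ccl5 hold more of the list (medians 6816 and 3773 CPM) than cells below it (2859 and 1533 CPM), in both libraries.

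MHC class I antigen presentation genes, which interferon also raises, were lower in all 10 members, with a median of -0.37 and -0.34 in core cells. H2-K1, a class I heavy chain gene, was at 1404 CPM in LPS against 1005 CPM in LPS_MCZ (-0.48 [-0.57, -0.40]), and H2-D1 was at -0.09 [-0.14, -0.03]. Both heavy chain genes are similar in sequence, so reads may be divided between them. The peptide transporter genes Tap1 (-0.44 [-0.81, -0.10]) and Tap2 (-0.37 [-0.68, -0.08]), the loading protein gene Tapbp (-0.37 [-0.49, -0.26]) and the immunoproteasome genes Psmb8 (-0.26 [-0.45, -0.07]), Psmb9 (-0.36 [-0.69, -0.05]) and Psmb10 (-0.40 [-0.67, -0.14]) were lower as well. Nlrc5, the transactivator gene of class I genes, was at 30.9 and 10.4 CPM (-1.49 [-2.48, -0.79], core -1.78), on 171 LPS UMIs and 14 LPS_MCZ UMIs. T cells held 7 and 8 of the 10 genes at or above the members' level, and 9 of the 10 were below 0 there too, with a median log2 ratio of -0.14.

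Higher MHC class II sums in LPS_MCZ rested on few cells. Cd74 was at 88.8 CPM in LPS against 581 CPM in LPS_MCZ (2.70 [2.55, 2.88]), H2-Aa at 18.8 and 190.3 CPM (3.27 [3.00, 3.68]) and H2-Ab1 at 32.8 and 205 CPM (2.61 [2.37, 2.92]), and the median of the list was 2.65 over 6 genes. The 2 LPS_MCZ cells named above held 94.3% of Cd74, 88.8% of H2-Ab1, 98.0% of Ccl22 (4.52 and 224 CPM) and 92.4% of Ccl17 (86.5 and 458 CPM) UMIs of that library. In core cells Cd74 was at 0.25, Ccl22 at 0.23 and Ccl17 at -1.11, and the median over the 4 class II genes measured there, where cells rich in H2-Aa and H2-Ab1 are absent by definition, was 0.65. The same held on the LPS side. The 4 Prg4 cells held 99.3% of Prg4, 98.3% of Cxcl13, a B cell chemokine gene, 86.3% of Saa3, an acute-phase gene, and 70.9% of Timd4. Prg4 had 298 UMIs in LPS and none in LPS_MCZ, at least 24.3-fold lower against a floor of 3 counts over the group, and Saa3 was at 1574 and 723 CPM (-1.12) but 0.23 in core cells.

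**Figure D5:**
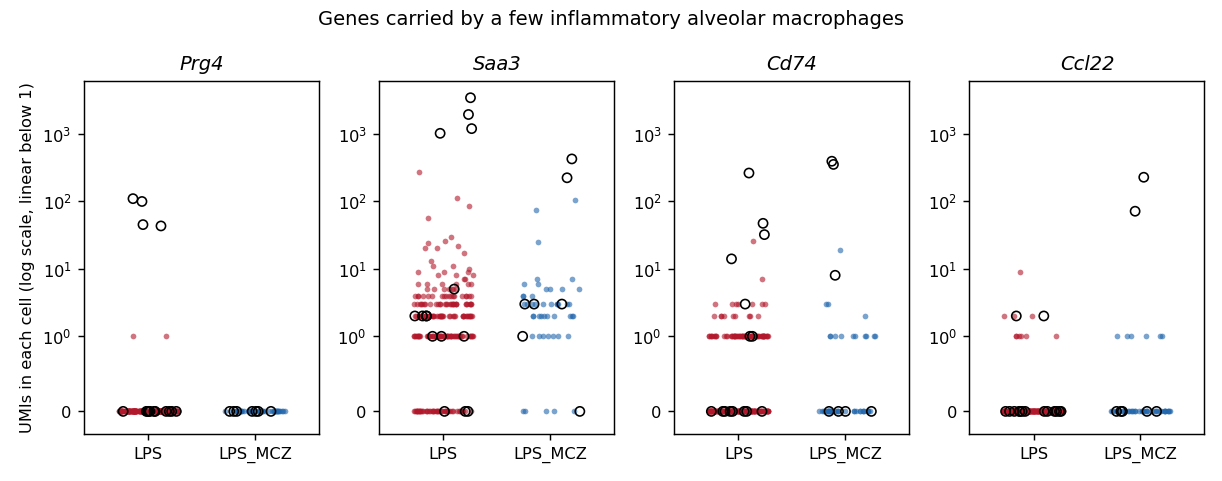
UMIs of Prg4, Saa3, Cd74 and Ccl22 in each inflammatory cell (log scale, linear below 1), LPS (250 cells) and LPS_MCZ (54 cells). Open circles are members outside the core set. The 4 highest Prg4 cells (43 to 109 UMIs) and the 2 highest Ccl22 cells (71 and 226 UMIs) are all open circles.

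Besides genes of those few cells, the genes with the largest ratios in all members mostly kept their direction in core cells. Core cells are 235 of the same 250 LPS members and 47 of the same 54 LPS_MCZ members, so this is no independent check. On the low side were the cyclic ADP-ribose hydrolase gene Cd38 (50.8 and 22.2 CPM, -1.16 [-1.79, -0.65], core -1.37), the syntaxin-binding gene Stxbp6 (-1.18 [-1.79, -0.69], core -1.30) and Spata7 (-1.32 [-1.84, -0.89], core -1.26). Ch25h, which makes 25-hydroxycholesterol, was at 613 and 354 CPM (-0.79 [-0.93, -0.65], core -0.71), with cell medians of 412 and 186 CPM. After thinning to 3000 UMIs a cell it had a UMI in 62.0% of LPS and 38.9% of LPS_MCZ cells, against 0.932% and 0.222% of T cells, and unthinned in 82.4% and 72.2%. The median depth of the T cells was 7355.5 and 8435 UMIs. The fatty acid-binding protein gene Fabp1 (-0.79 [-1.22, -0.40]), Utp11 (-0.75 [-1.24, -0.32]), the keratin-anchoring gene Lad1 (-0.74 [-1.13, -0.39]) and Cyb561a3 (-0.73 [-0.89, -0.58]), an iron reductase gene of lysosomes, completed this side, and these last 4 were also among the 12 lowest of core cells. Spata7 rested on few cells, with 2 cells holding 78.6% of its LPS_MCZ UMIs, and turned to 1.01 when each library's own median chose the cells.

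On the high side Gpnmb, a glycoprotein gene of lysosomes and phagosomes, was seen in more cells than the other 11 genes with the highest ratios, in 62.4% of LPS and 79.6% of LPS_MCZ members. It was at 113 CPM in LPS against 285 CPM in LPS_MCZ, 2.50-fold higher (1.32 [1.14, 1.52], core 1.32), with cell medians of 63.4 and 187 CPM. After thinning to 3000 UMIs it had a UMI in 24.8% [19.6, 30.6] of LPS and 59.3% [45.0, 72.4] of LPS_MCZ cells, against 0.518% and 0.443% of T cells, and its ratio ran from 0.93 to 1.64 in the 15 alternatives run for it. The elastase gene Mmp12 was at 30.2 and 177 CPM (2.51 [2.26, 2.84]), but at -1.81 in cells at or above the pooled 75th percentile. It was seen in only 20 LPS and 13 LPS_MCZ cells (8% and 24.1%, and 4.4% and 7.41% after thinning). The retinoic acid hydroxylase gene Cyp26b1 (1.40 [1.02, 1.85], core 1.26), the growth factor gene Gdf15 (1.16 [0.93, 1.42], core 1.17), the stress-response gene Gadd45g (1.91 [1.56, 2.37], core 1.77), the activation marker gene Cd83 (1.37 [1.17, 1.59], core 1.18) and the microRNA-155 host gene Mir155hg (1.26 [0.95, 1.62], core 0.75) were higher too. The higher sum of Cd83 was not seen in the share of cells with it. That share was 19.6% in LPS and 20.4% in LPS_MCZ after thinning, and 57.6% and 53.7% unthinned. Gdf15 had a UMI in 11.2% and 16.7% of thinned cells. Among the 12 highest of core cells but not of all members were the iron hormone gene Hamp (1.23), the organic anion carrier gene Slco2b1 (1.17), the inositol carrier gene Slc5a3 (1.05), the growth hormone receptor gene Ghr (1.05), the tetraspanin gene Cd63 (1.04), the transcription factor gene Klf4 (1.02), Mid1 (0.99) and Ccdc162 (0.96). On the low side of core cells Ccl17 (-1.11), St8sia4 (-0.86), Idi1 (-0.81), Bcar3 (-0.69) and Zfp704 (-0.67) were added.

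Genes of the resident alveolar macrophage programme were higher in LPS_MCZ inflammatory cells. The median over 20 genes was 0.32 and 0.33 in core cells, with 4 above 0.5 and 1 below -0.5, and the median in quiet cells was 0.12. Chil3, a chitinase-like secreted protein gene, was at 4939.9 CPM in LPS against 7856 CPM in LPS_MCZ, 1.59-fold higher (0.67 [0.64, 0.70]), with cell medians of 4808 and 7403 CPM and ratios of 0.43 to 0.78 in the alternatives. Chil3 has a near copy, Chil4, and Ear1 and Ear2 are near copies, so reads of these may be divided. The sialic acid-binding receptor gene Siglecf (12.5 and 23.0 CPM, 0.83 [0.22, 1.51]), the eosinophil-associated ribonuclease gene Ear1 (0.43 [0.23, 0.64]), the cathepsin gene Ctsk (0.55 [0.40, 0.71]) and the lipid droplet gene Cidec (0.56 [-0.04, 1.19]) were also higher. Transforming growth factor beta receptor genes, which the alveolar macrophage programme needs, were at 0.49 [0.25, 0.75] for Tgfbr2 and 0.28 [0.13, 0.44] for Tgfbr1, and the integrin gene Itgax was at 0.36 [0.18, 0.53]. Pparg was at 153 and 167 CPM (0.13 [-0.08, 0.35]), its target Fabp4 at 534 and 619 CPM (0.21 [0.10, 0.32]) and Fabp5 at 314 and 415 CPM (0.40 [0.26, 0.54]), whereas Fabp1 (-0.79 [-1.22, -0.40]) and Car4 were lower (2304 and 1795 CPM, -0.36 [-0.42, -0.30]). Among cells at or above the pooled 75th percentile of the score (137 and 15 cells) the list median was 0.05.

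Of the genes of the gate itself, given as a description, Marco, a scavenger receptor gene, was at 1128 CPM in LPS against 1753 CPM in LPS_MCZ (0.64), with cell medians of 184 and 813 CPM. The mannose receptor gene Mrc1 was at 655 and 925 CPM (0.50), Plet1 at 868 and 945 CPM (0.12), Ear2 at 211 and 269.5 CPM (0.35), Lpl, the lipoprotein lipase gene, at 3265 and 3159 CPM (-0.05) and Krt79 at 145 and 144 CPM (-0.02). Markers of classical (M1) activation had a median of -0.18 over 13 genes, with Cd38 the only one below -0.5. In quiet cells that median was -0.51 over 12 genes, and in quiet core cells -0.17 over 11 genes. Acod1, the itaconate-making enzyme gene, was at 1200.2 and 913 CPM (-0.39 [-0.48, -0.31]), the prostaglandin E synthase gene Ptges at 793 and 618 CPM (-0.36 [-0.47, -0.25]), Irf1 at 0.44 [0.23, 0.64], and Cd40 at 1.08 in all members and -1.14 in core cells. Markers of alternative (M2) activation had a median of -0.08 over 11 genes, where the list's higher genes were Klf4 (0.93 [0.69, 1.18]), Chil3 and Cd200r1 (0.50 [-0.05, 1.07]), and Retnla, with 91 LPS and 0 LPS_MCZ UMIs, came wholly from 2 LPS cells.

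Lysosomal genes were higher in small, even steps. Of 33 genes 31 were above 0, 4 above 0.5 and 0 below -0.5, with a median of 0.24, 0.24 in core cells and 0.07 in quiet cells. The summed list had a cell median of 12616 CPM in LPS and 14878 CPM in LPS_MCZ. The protease genes Ctsd (1206 CPM in LPS against 1627 CPM in LPS_MCZ, 0.43 [0.36, 0.50]), Ctsa (0.48 [0.32, 0.63]) and Lgmn (65.7 and 115 CPM, 0.80 [0.52, 1.08]), and the saposin precursor gene Psap (1562 and 2184 CPM, 0.48 [0.42, 0.54]), were higher, as was Cd63 (67.0 and 135 CPM, 1.01 [0.75, 1.28], but -0.73 in the 137 and 15 cells at or above the pooled 75th percentile). The cathepsin genes Ctsb (0.18 [0.11, 0.26]) and Ctss (0.25 [0.18, 0.33]) were higher by less, Ctsz was at 0.02 [-0.06, 0.09] and the membrane protein gene Lamp2 at -0.19 [-0.37, -0.02]. In T cells the list also had a median above 0 (0.36), at a summed level of 2014 and 2444 CPM against 12727 and 15267 CPM in the members, and no gene of the list reached the members' level there. Efferocytosis and resolution genes had a median of 0.11 over 14 genes (0.22 in quiet cells), with Gpnmb above 0.5 and Timd4 below -0.5. The receptor genes Mertk (0.10 [-0.03, 0.23]) and Axl (-0.27 [-0.44, -0.10]) and the osteopontin gene Spp1 (0.32 [0.19, 0.45]) lay between.

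Lipid genes differed in direction by function. Fatty acid oxidation genes were higher, with 8 of 23 above 0.5, 1 below -0.5 and a median of 0.26 (core 0.31, quiet cells 0.11). The medium-chain dehydrogenase gene Acadm was at 41.3 CPM in LPS against 71.8 CPM in LPS_MCZ (0.79 [0.44, 1.15]), the thiolase gene Acaa2 at 29.5 and 49.6 CPM (0.73 [0.32, 1.17]), the coactivator gene Ppargc1b at 24.8 and 42.9 CPM (0.77 [0.32, 1.25]) and the hydratase gene Echs1 at 0.65 [0.28, 1.05], all above the levels in T cells. Ehhadh, a peroxisomal enzyme gene, was at 14.1 and 54.0 CPM (1.86 [1.46, 2.42]), where 1 LPS_MCZ cell held 45 of 73 UMIs and the ratio without shared barcodes was 0.58. Cpt1a, the carnitine transferase gene that gates entry of fatty acids into mitochondria, was at -0.27 [-0.61, 0.06]. Genes of cholesterol export and targets of the sterol receptor LXR had a median of 0.28 over 16 genes, 5 above 0.5 and 1 below -0.5: the exporter genes Abca1 (137 and 196 CPM, 0.52 [0.31, 0.72]) and Abcg1 (619 and 774 CPM, 0.32 [0.22, 0.42]), the phospholipid transfer protein gene Pltp (0.52 [0.25, 0.79]) and the LXR-induced ligase gene Mylip (0.97 [0.61, 1.35]) were higher. Apoe was at 0.88 [0.61, 1.16], with 2 cells holding 46.4% of its UMIs in LPS and 50% in LPS_MCZ, and Arl4c turned from 1.33 to -0.60 in core cells. Ch25h, an LPS-induced gene placed in this list, was its 1 gene below -0.5.

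Cholesterol synthesis genes were the lipid list with a median below 0, -0.21 over 22 genes, with 0 above 0.5 and 3 below -0.5. In core cells the median was -0.27, in quiet cells 0.11, and over the alternatives -0.49 to -0.03. Acat2, an acetyl-CoA acetyltransferase gene, was at 12.7 and 6.66 CPM (-0.83 [-2.11, 0.08]). Msmo1, a sterol oxidase gene, was at 47.0 and 31.8 CPM (-0.55 [-1.06, -0.09]), Insig1 at -0.51 [-0.99, -0.09], the master regulator gene Srebf2 at 82.3 and 61.5 CPM (-0.42 [-0.78, -0.08]) and Hmgcs1 at -0.29 [-0.68, 0.07]. Cyp51, whose fungal counterpart is the target of azole drugs, was at 42.0 and 37.0 CPM (-0.18 [-0.65, 0.26], core -0.62). Idi1 was at 0.18 in all members and -0.81 in core cells, with 2 cells holding 48.3% of its LPS_MCZ UMIs. Of fatty acid synthesis genes, 7 were measured with a median of 0.38, led by the desaturase gene Scd2 (48 LPS UMIs and 42 LPS_MCZ UMIs, 1.73 [1.21, 2.47]) and the regulator gene Srebf1 (0.53 [-0.15, 1.25]), with Acaca (0.42 [0.08, 0.76]) and Elovl5 (0.38 [0.04, 0.73]), while Fasn was at -0.15 [-1.20, 0.75]. For lipid uptake and storage the median was 0.08 over 26 genes, 3 above 0.5 and 0 below -0.5: the glycerol phosphate dehydrogenase gene Gpd1 was at 7.96 and 23.0 CPM (1.42 [0.82, 2.22], but -2.79 at or above the pooled 75th percentile), the monoglyceride lipase gene Mgll was at 243 and 426 CPM (0.80 [0.66, 0.95]), the fatty acid translocase gene Cd36 at 249.7 and 337 CPM (0.43 [0.28, 0.59]), and the lipid droplet coat gene Plin2 was near equal (1649 and 1604 CPM, -0.04 [-0.11, 0.03]).

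Immediate early genes, which cells switch on within minutes of a stimulus, were higher in the summed cells of LPS_MCZ, but not clearly so cell by cell. Per cell, the summed list had a median of 3058 CPM in LPS and 3223 CPM in LPS_MCZ, and of 3056 and 2948 CPM in core cells. Its quartiles were 2209 and 5108 CPM in LPS and 2044 and 4943 CPM in LPS_MCZ. Of 21 genes 8 were above 0.5 and 0 below -0.5, with a median of 0.37, 0.21 in core cells and -0.26 in quiet cells. Dusp2, a phosphatase gene, was at 32.4 and 74.8 CPM (1.18 [0.84, 1.57]). Fosb was at 57.7 and 121 CPM (1.05 [0.78, 1.34]), Egr1 at 59.5 and 118 CPM (0.97 [0.70, 1.26]), Klf2 at 114 and 190.3 CPM (0.74 [0.53, 0.95]) and Fos at 239 and 339.8 CPM (0.50 [0.35, 0.66]), while Atf3 (-0.16 [-0.37, 0.04]) and Dusp1 (-0.10 [-0.24, 0.04]) were near equal. Tissue digestion also induces these genes, and its part in the result was not tested. In T cells the list was near equal (-0.01), at or above the members' level for 15 genes in LPS, and the 2 genes low in T cells had a median of -0.27.

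Energy and stress lists had medians near that of all genes or slightly above it. Respiratory chain genes had a median of 0.21 with 16 of 20 above 0 and 1 above 0.5 (Sdhb, a succinate dehydrogenase subunit gene, 0.58 [0.27, 0.90]). Glycolysis genes had a median of 0.13, and their regulator Hif1a was lower (270.3 and 178 CPM, -0.60 [-0.80, -0.40]). Heat shock genes were at -0.06 (-0.35 in quiet cells). Oxidative stress defence genes were at 0.06, where Nfe2l2, the NRF2 gene, was at 0.48 [0.32, 0.65] and Hmox1 at 0.07 [-0.02, 0.15]. Proliferation genes had a median of 0.14 over 18 genes, 1 above 0.5 and 5 below -0.5. The mitotic genes Ccnb1 (52 LPS UMIs and 2 LPS_MCZ UMIs), Ccnb2 (57 LPS UMIs and 2 LPS_MCZ UMIs) and Cenpf (89 LPS UMIs and 6 LPS_MCZ UMIs) were low on few UMIs, but at 1.06, 0.82 and 1.19 when each library's own median chose the cells. The microtubule regulator gene Stmn1 was high (ratio 1.30, on 73 LPS UMIs and 46 LPS_MCZ UMIs) but at -1.91 at or above the pooled 75th percentile. Mki67 was at 0.05 [-0.18, 0.27], and 2 cells held 42.6% and 74.6% of Top2a UMIs.

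Inflammatory core cells were also compared with quiet core cells of the same library, and genes are counted here where both libraries passed the limit in the same direction. Because measured transcripts chose the inflammatory cells, this is a description. Of 7920 genes compared, 96 were at least 2-fold higher in inflammatory cells in both libraries (1.21%) and 172 at least 2-fold lower in both (2.17%), and 4.63% lay above 0.5 and 7.49% below -0.5 in both. Interferon-response genes were high in inflammatory cells, 32 of 40 above 0.5 in both libraries, with medians of 1.504 in LPS and 1.22 in LPS_MCZ, for example Ifit2 (3.51 in LPS and 2.38 in LPS_MCZ) and Herc6 (1.89 in LPS and 1.64 in LPS_MCZ). Of MHC class I genes 6 of 10 were above 0.5 in both (0.97 and 0.55), and of chemokines other than Cxcl3 and Ccl5, 5 of 10, namely Ccl17, Cxcl16, Ccl4, Ccl3 and Ccl9, while 2 of 10 were below -0.5 in both, Ccl2 (-2.20 in LPS and -1.47 in LPS_MCZ) and Ccl6 (-1.41 in LPS and -0.65 in LPS_MCZ). Of cytokine genes 0 of 13 were above 0.5 and 3 below -0.5 in both libraries, with medians of -0.25 and -0.33. Acod1 (1.74 in LPS and 1.66 in LPS_MCZ), the arginine-making enzyme gene Ass1 (1.90 in LPS and 1.63 in LPS_MCZ), the proteoglycan gene Sdc4 (1.83 in LPS and 2.75 in LPS_MCZ), the aminopeptidase gene Anpep (1.92 in LPS and 2.01 in LPS_MCZ) and the serpin gene Serpina3g (2.42 in LPS and 3.16 in LPS_MCZ) were among the 12 highest.

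On the other side, quiet cells held more of the early-response and resident genes. Immediate early genes were lower in inflammatory cells, 16 of 21 below -0.5 in both libraries (medians -1.05 and -0.82), led by Fosb (-3.25 in LPS and -2.98 in LPS_MCZ) and Egr1 (-3.63 in LPS and -2.42 in LPS_MCZ). Of resident alveolar macrophage genes 7 of 20 were below -0.5 in both, and of lysosomal genes 5 of 33. Nav2 (-4.36 in LPS and -3.67 in LPS_MCZ), Krt19 (-3.49 in LPS and -3.14 in LPS_MCZ), the ether lipid enzyme gene Agmo (-3.11 in LPS and -2.44 in LPS_MCZ) and Cidec (-2.02 in LPS and -2.00 in LPS_MCZ) were among the 12 lowest. Within the quiet cells, between libraries, the interferon list was at -0.49 in all quiet cells and -0.08 in quiet core cells, MHC class I at -0.18 and 0.02, and the lysosome list at 0.07 and 0.01. The differences between inflammatory and quiet cells in these library ratios were not tested.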

How the data were processed

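Dissociated left lower lobes were profiled with droplet single-cell RNA sequencing (10x Genomics 3' chemistry, version 3, per the labels' protocols), 1 pooled library from mice given LPS and 1 from mice given LPS and miconazole. The deposited values are UMI counts per gene and cell, made by the authors with Cell Ranger 7.0.0, per the file headers, and bcl2fastq 2.20 and the build mm10, per the submitters' processing notes. Whether intronic reads were counted is not stated in any source used here. The samples were grouped by the treatment in their labels.
UMIs of the members were summed in each library and scaled to CPM, and the log2 ratio of LPS_MCZ over LPS was taken after adding 1 CPM. Intervals of ratios are exact conditional binomial at 95%, and those of shares Clopper-Pearson. They cover counting error only, and those of ratios treat each UMI as independent, so variation between cells is left out. Genes needed at least 50 UMIs over both libraries, and depth was 5526400 and 1350604 UMIs over the members, so that a gene under 50 UMIs was not described. With 1 library a group nothing was tested. The ratio calculation was tested on simulated data. Analyses used python 3.11.15, numpy 2.4.6, scipy 1.17.1 and pandas 2.3.3, and figures matplotlib 3.10.9.
The members, the 22 gene lists (436 genes) and the marker sets were chosen with earlier results of these data known. Genes named beyond the selecting and marker genes were the 12 with the lowest and the 12 with the highest ratio among genes with at least 200 UMIs, at least 50 CPM in 1 library and a T cell level under 0.5 of the members' (no mitochondrial, ribosomal or unnamed genes), the 4 largest ratios of each list, and further list members by role. The same ranking was repeated in core cells and for inflammatory over quiet cells. Comparison of shares of cells used cells thinned to 3000 UMIs. The T cells were taken as a measure of free RNA because they should lack macrophage genes, and had under 0.15% of UMIs in the 6 gate genes. They were not filtered for neutrophil markers or doublets, so they give no such measure for genes that neutrophils or T cells express. A few genes written into the lists are not reported here. Alternatives changed the scaling, the added CPM, the UMI minimum, the share that divides the cells, the gate, the cell filters, the weighting and depth of cells, and cells rich in neutrophil markers.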

Additional observations from a re-analysis of the deposited data

Results flagged for a closer look

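The median log2 ratio of the MHC class II list was 2.65 in the inflammatory alveolar macrophages and -1.32 in the quiet ones, opposite signs under the same contrast of LPS_MCZ over LPS. The difference was not tested. Core cells, from which cells rich in H2-Aa and H2-Ab1 were removed by definition, gave 0.65 over 4 genes in inflammatory and 0.43 over 3 genes in quiet cells, the latter with a counting interval of -0.07 to 0.99, so they do not bear independently on the class II genes. Of the Cd74 UMIs of inflammatory cells, 2 cells held 94.3% in LPS_MCZ and 1 cell 53.2% in LPS.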

How the results depend on the processing

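Of the recomputed list medians, gene counts and shares, 366 stayed within the main value's counting interval (for a list, that of its middle gene) or, for counts, within 1.5 times, and 66 moved. Of the recomputed ratios of single genes, 1270 stayed within their interval, 298 moved out of it, and 37 changed sign from a main ratio of at least 2-fold. The main values were 125 genes higher and 127 lower. The interferon-response, lysosome, fatty acid oxidation, cholesterol export and MHC class I medians kept their sign in all alternatives run, the first from -0.74 to -0.21, while the alternative (M2) polarization median of -0.08 kept its sign in 7 of 18, and the share of inflammatory cells ran from 72.9% to 75.6% in LPS and from 19.3% to 20.4% in LPS_MCZ. The core set and the removal of shared barcodes were chosen after seeing the data. The cause of the following differences was not tested. When each library's own median chose the cells (171 and 133 cells) the values were 219 genes higher, 82 genes lower, cytokines median 0.26, interferon response median -0.74, classical (M1) polarization median -0.31, lipid uptake and storage median 0.29, MHC class II median 1.17, MHC class I processing median -0.63, Areg 1.33, Ccl2 0.0052, Ccl7 0.32, Ccnb1 1.06, Ccnb2 0.82, Cenpf 1.19 and Spata7 1.01. With the upper pooled tercile of the score (178 and 25 cells) the values were 279 genes lower, cytokines median -0.022, NF-kB median 0.25, classical (M1) polarization median 0.090, alternative (M2) polarization median 0.32, proliferation median -0.95, Cd63 -0.065, Spata7 0.18 and Stmn1 -1.40. For cells from the pooled median to the 75th percentile (113 and 39 cells) the values were chemokines median -0.086, NF-kB median -0.19, MHC class II median 3.23, Arl4c -0.30, Ccl2 0.18, Ccl7 1.00, Cd40 -0.16 and Saa3 0.050. For cells at or above the pooled 75th percentile (137 and 15 cells) the values were 191 genes higher, 429 genes lower, chemokines median -0.11, NF-kB median 0.30, classical (M1) polarization median 0.16, resident alveolar macrophage identity median 0.055, fatty acid synthesis median 0.0050, efferocytosis and resolution median -0.18, MHC class II median 3.03, proliferation median -0.45, Cd63 -0.73, Ehhadh -0.26, Gpd1 -2.79, Mmp12 -1.81, Spata7 0.24 and Stmn1 -1.91. With a gate of 0.3% and 15 UMIs the values were chemokines median -0.15, classical (M1) polarization median -0.25, MHC class II median 1.75, Cd40 -0.18 and Cxcl13 0.40. With at most 10% mitochondrial UMIs the values were chemokines median -0.14. With the mean of the cells' CPM the values were chemokines median -0.30, Ccl2 0.12, Ccl7 0.36 and Saa3 0.53. With cells thinned to 3000 UMIs the values were 46 genes higher, chemokines median -0.35, cytokines median -0.38, alternative (M2) polarization median 0.46, lipid uptake and storage median -0.17, immediate early genes median 0.15, Ifit3b -0.10, Saa3 0.44 and Stmn1 -1.35. Without the 10% of members highest in neutrophil markers the values were chemokines median -0.14, classical (M1) polarization median -0.25, MHC class II median 1.72 and Cd40 -0.13. Over genes low in the T cells only the values were 28 genes higher, 16 genes lower, chemokines median 0.052, cytokines median -0.41, classical (M1) polarization median -0.27, alternative (M2) polarization median 0.31 and immediate early genes median -0.27. In core cells the values were 80 genes higher, chemokines median -0.067, NF-kB median -0.11, classical (M1) polarization median -0.31, MHC class II median 0.65, Arl4c -0.60, Ccl17 -1.11, Ccl2 0.24, Ccl7 0.29, Cd40 -1.14, Cxcl13 0.29 and Saa3 0.23. Without members whose barcode occurred in both libraries the values were chemokines median -0.27 and classical (M1) polarization median -0.13. With 10 CPM added the values were 46 genes higher, 36 genes lower and MHC class II median 2.42. With no UMI minimum the values were 706 genes higher, 642 genes lower, alternative (M2) polarization median 0.43 and MHC class II median 2.31. With at least 200 UMIs a gene the values were 41 genes higher, 26 genes lower, chemokines median -0.13 and classical (M1) polarization median -0.23. Ratios are LPS_MCZ over LPS on the log2 scale. Gene counts with another UMI minimum, or over genes low in the T cells only, come from another number of genes and are not shares. Scaling by the median of ratios removed a shift of -0.02. No paired analysis was possible because each group was 1 pooled library, and no library could be left out. Depth limits genes of few UMIs: the 54 LPS_MCZ members held 1350604 UMIs, so 1 cell could decide a gene's sum.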
